A study of Mus musculus with 12 samples.

Results

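Nuclear receptors are transcription factors, most of which are switched by small fat-soluble ligands such as fatty acids, oxysterols, bile acids, steroid and thyroid hormones, retinoids and drugs. They bind DNA as monomers, homodimers or, in many cases, as partners of a retinoid X receptor, and recruit coactivators or corepressors. In liver they are known to set fat oxidation, fat storage, cholesterol and bile acid handling and drug clearance. The genes described here are 33 such receptors, taken by gene symbol out of 24787 genes in the deposited count files; all 33 symbols were found. The study measured liver RNA from C57Bl/6 mice in 12 libraries, 4 in each of 3 groups. In HFD+MEC1, mice that had eaten a high-fat diet were injected into the peritoneum daily with MEC1 at 0.5 mg/kg. HFD mice ate the high-fat diet and had vehicle by the same route, and ND mice ate a normal diet; feeding lasted 2 months before the mice on the high-fat diet were randomised to compound or vehicle. MEC1 is known here by its code name only, and the series title concerns PROTACs and the clearance of mitochondria.

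The sources used here do not give the length of dosing, the sex or age of the mice, or whether ND mice were injected, so a difference from ND cannot be told apart from any effect of injection. They also do not state that every library is a separate mouse, so p-values measure the spread between these libraries, which may be technical in part. Libraries held 39916405 to 51340317 counts. Liver identity was checked with 8 hepatocyte markers, all detected, which summed to 75155 to 102440 CPM (counts scaled to library size) in HFD+MEC1, 94623 to 105030 CPM in HFD and 93756 to 109670 CPM in ND; 1 of the 8, Cps1, fell in both high-fat groups against ND. Plin1 and Lep, which define fat cells, had no count in any library, and the 4 fat cell markers together never passed 0.0967 CPM. In whole liver, fewer cells of a type and less RNA per cell cannot be told apart.

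Hnf4a, a receptor that defines the hepatocyte programme, had the highest level per length of transcript among the 33 genes in all 3 groups. Levels between genes are compared here in the deposited RPKM, which scales reads by transcript length and by the size of the library. Hnf4a stood at 107.7 ± 14.3 RPKM in HFD+MEC1, 88.2 ± 6.60 in HFD and 86.9 ± 12.1 in ND (SD, n = 4 each). Rxra, the main dimer partner, followed at 59.7 ± 5.03, 48.7 ± 4.20 and 43.9 ± 4.96 RPKM in the same order of groups. Nr2f6, an orphan receptor of the COUP-TF family, came next at 43.5 ± 3.74, 40.9 ± 7.46 and 39.7 ± 9.49 RPKM, although 54.4% of its exonic sequence is also covered by Ocel1 on the opposite strand and the use of strand in counting is not given. The oxysterol receptor gene Nr1h3 and the drug-sensing receptor gene Nr1i3 followed, then Ppara and Nr1i2, in each group. Within that order the libraries of Hnf4a lay above all of those of Rxra in every group, while other neighbours overlapped. Rxra and Nr2f6 overlapped in HFD and in ND. In ND the highest Nr2f6 library, at 53.7 RPKM, lay above the highest Rxra library, at 50.7 RPKM. Nr2f6 and Nr1h3, Nr1h3 and Nr1i3, and Nr1i3 and Ppara overlapped in HFD+MEC1 and in HFD. Ppara and Nr1i2 overlapped in ND.

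The first 3 genes held 52.6 ± 3.61% of the summed RPKM of the 33 receptors in HFD+MEC1, 47.5 ± 1.47% in HFD and 50.1 ± 2.58% in ND. In each group 25 of the receptors averaged at least 1 RPKM. At the low end stood Nr4a2, Hnf4g and Vdr, and Vdr, the vitamin D receptor gene, had 0 to 4 counts per library and was not tested. A count of 3, taken as the floor for detection, corresponds to 0.0584 to 0.0752 CPM and covers counting error only. Of the gene counts from 1 to 20, 70.1% to 74.7% per library were even, and how reads were counted is not given, so a low count may stand for fewer sequenced fragments than its number. Between 244 and 296 genes per library had an RPKM above 0 with a count of 0, so the order by RPKM may rest on another counting than the CPM values. Between those ends most neighbours in the order had libraries that overlapped. Among the exceptions in ND were Thra and Nr2c1, where the lowest Thra library was at 3.73 RPKM and the highest Nr2c1 library at 3.17 RPKM.

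**Figure D1:**
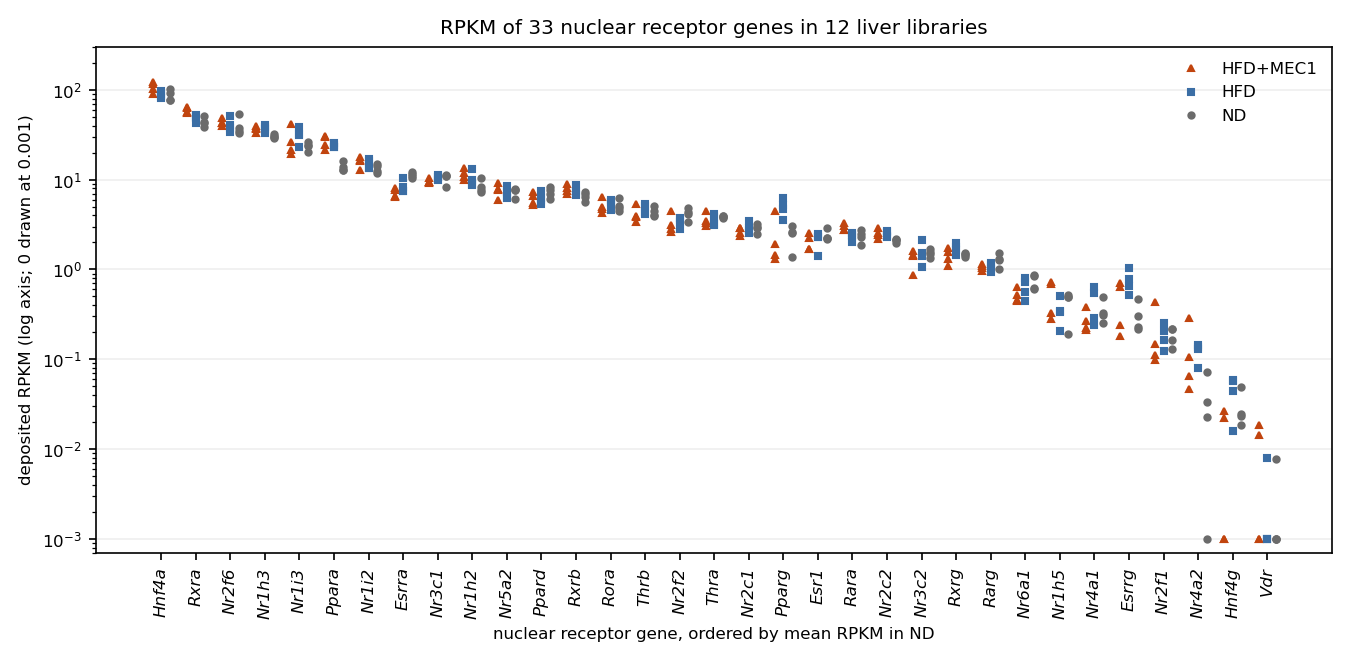
Deposited RPKM of the 33 receptor genes in each of 12 libraries on a log axis, with HFD+MEC1 (triangles), HFD (squares) and ND (circles) side by side and genes ordered by their ND mean. Hnf4a is highest at 86.9 RPKM in ND, and the Ppara libraries of ND, at 12.7 to 15.96 RPKM, lie below those of HFD, at 22.9 to 25.3 RPKM.

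Of the 32 receptors with enough counts for a test, 2 passed an adjusted p of 0.05 in HFD against ND, Ppara higher and Esrra lower, and the other 30 did not. That is 6.25% of the members, beside 6.3% of all 14172 genes tested, of which 3.35% were higher and 2.95% lower. The same 2 genes passed in HFD+MEC1 against ND, in the same directions, where 4.54% of all genes passed, 2.15% higher and 2.4% lower; these comparisons share the ND libraries. In HFD+MEC1 against HFD, the randomised comparison, edgeR called 0 of 32 receptors, beside 0.0282% of all genes, which is 4 genes (0.00706% higher and 0.0212% lower). There, 4 receptors had an unadjusted p under 0.05, beside 14.8% of all genes: Pparg, Rxra, Rara and Hnf4a. DESeq2 called 1 of them, Pparg, where it called 2.86% of all genes, and limma-voom called 0. At an unadjusted p under 0.05 there were 10 receptors in HFD+MEC1 against ND, beside 19.1% of all genes, and 9 in HFD against ND, beside 20.7%.

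The calls against ND depended on the tool for genes near the threshold. DESeq2 called 5 receptors in HFD+MEC1 against ND, beside 8.15% of all genes, and 4 in HFD against ND, beside 9.82%. With HFD and ND fitted alone, edgeR called 5, beside 8.36%. With the replicate number as a block it called 3 in HFD+MEC1 against ND, beside 5.05%, 3 in HFD against ND, beside 6.32%, and 0 in HFD+MEC1 against HFD, beside 0.148%. Without HFD+MEC1 replicate 1 it called 4 in HFD+MEC1 against ND, beside 4.72%, 4 in HFD against ND, beside 7%, and 2 in HFD+MEC1 against HFD, beside 3.2%.

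Most receptors differed little between groups. The log2 fold change was under 0.4 in size for 26 of 32 receptors in HFD against ND, 27 in HFD+MEC1 against HFD and 24 in HFD+MEC1 against ND. Their median size was 0.15, 0.22 and 0.19 for HFD+MEC1 against HFD, HFD+MEC1 against ND and HFD against ND, and over all genes tested it was 0.16, 0.18 and 0.18. With sign, the medians of the receptors were -0.00, -0.07 and -0.04, beside 0.01, 0.00 and -0.00 over all genes.

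**Figure D2:**
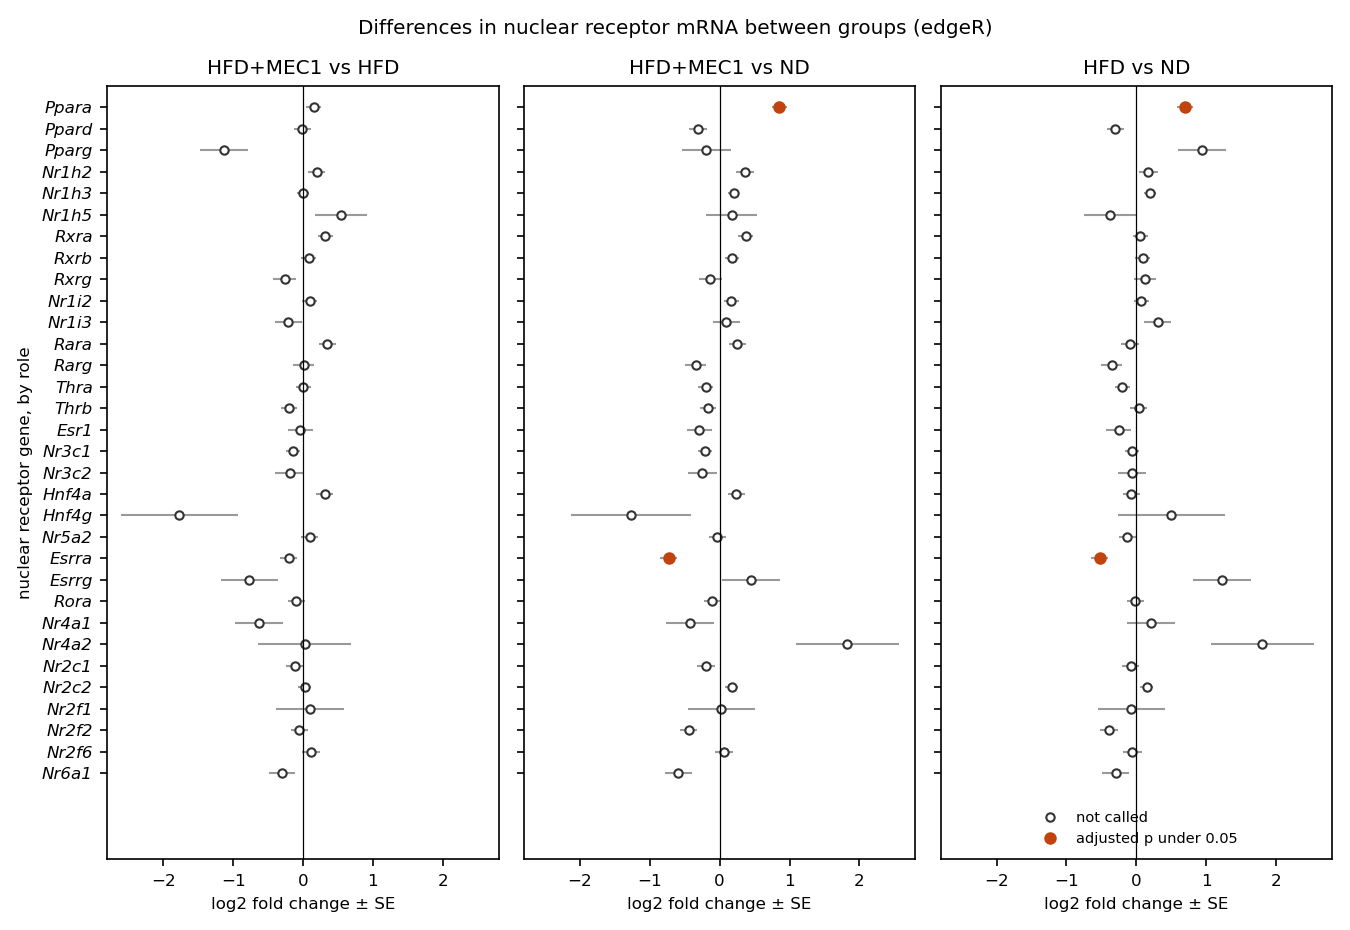
Log2 fold change with its SE for the 32 tested receptors, grouped by role, in HFD+MEC1 against HFD (left), HFD+MEC1 against ND (middle) and HFD against ND (right); filled points passed an adjusted p of 0.05 with edgeR. Ppara (0.85 and 0.70) and Esrra (-0.73 and -0.52) are the filled points in both comparisons with ND, and no point is filled on the left.

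Ppara encodes the fatty acid receptor that drives fat oxidation and ketone body production in liver, and it rose in both high-fat groups relative to ND. It lies on chromosome 15, from 85734983 to 85802819 on the plus strand of mm10, and no annotated exon on the opposite strand overlaps it. Its level was 267.6, 204.8, 284.7 and 237.0 CPM in the HFD+MEC1 libraries, 216.6, 242.6, 213.8 and 220.2 CPM in the HFD libraries and 160.8, 134.0, 131.6 and 123.3 CPM in the ND libraries. Every library of the high-fat groups lay above every ND library, and the HFD+MEC1 and HFD libraries overlapped. The log2 fold change was 0.85 ± 0.11 in HFD+MEC1 against ND (SE, edgeR adjusted p = 0.00067) and 0.70 ± 0.11 in HFD against ND (adjusted p = 0.00187). Between HFD+MEC1 and HFD it was 0.15 ± 0.11 (adjusted p = 0.551). Ppara passed in both comparisons with ND under each of the 22 alternative settings tried. Per length it stood at 26.5 ± 4.51 RPKM in HFD+MEC1, 24.0 ± 1.12 in HFD and 13.8 ± 1.51 in ND.

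Esrra encodes an orphan receptor that, with PGC-1 coactivators, is known to drive genes of mitochondrial respiration; it has no established natural ligand. It fell in both high-fat groups relative to ND, the opposite direction to Ppara. The gene is on chromosome 19, from 6910977 to 6921813 on the minus strand of mm10, and shares 1.66% of its exonic bases with Trmt112 on the other strand. Its level was 16.6, 23.3, 22.1 and 19.2 CPM in the HFD+MEC1 libraries, 29.0, 21.6, 21.4 and 21.4 CPM in the HFD libraries and 31.7, 37.6, 33.2 and 31.8 CPM in the ND libraries. All ND libraries stood above all others, with HFD replicate 1 the nearest to them. The log2 fold change was -0.73 ± 0.12 in HFD+MEC1 against ND (edgeR adjusted p = 0.00366), -0.52 ± 0.12 in HFD against ND (adjusted p = 0.0182) and -0.20 ± 0.12 in HFD+MEC1 against HFD (adjusted p = 0.473). The call against ND in HFD was lost without HFD replicate 2 (adjusted p = 0.0565), without HFD replicate 3 (0.0658) and in unfiltered RPKM (0.0592). In the order of RPKM Esrra was at rank 12 of 33 in HFD+MEC1 with 7.21 RPKM, rank 10 in HFD with 8.41 and rank 8 in ND with 11.3.

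Sequence from before an annotated transcription start is shown for these 2 genes, which passed against ND, and for Pparg, which passed in no comparison in the main edgeR fit. It is from RefSeq promoter windows of 250 bases before each start (build GRCm38.p6, the assembly that mm10 names), cut to the stretch that no annotated exon covers. The longest such stretch of a window was kept, and it need not reach the start. That of Ppara lies inside the gene as placed above, which begins at 85734983. Capitals mark CG dinucleotides, the bases that DNA methylation targets.
Ppara (chr15:85735714-85735775, plus strand): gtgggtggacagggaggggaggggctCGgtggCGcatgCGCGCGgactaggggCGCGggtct
Esrra (chr19:6921814-6922058, minus strand): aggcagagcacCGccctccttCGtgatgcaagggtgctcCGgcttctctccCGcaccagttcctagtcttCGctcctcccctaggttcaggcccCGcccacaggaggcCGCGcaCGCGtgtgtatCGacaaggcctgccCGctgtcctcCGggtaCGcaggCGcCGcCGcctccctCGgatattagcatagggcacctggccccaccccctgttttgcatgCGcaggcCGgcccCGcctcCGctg
Pparg, upstream start (chr6:115360894-115360950, plus strand): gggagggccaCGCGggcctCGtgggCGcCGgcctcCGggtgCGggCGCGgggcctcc
Pparg, downstream start (chr6:115421816-115422065, plus strand): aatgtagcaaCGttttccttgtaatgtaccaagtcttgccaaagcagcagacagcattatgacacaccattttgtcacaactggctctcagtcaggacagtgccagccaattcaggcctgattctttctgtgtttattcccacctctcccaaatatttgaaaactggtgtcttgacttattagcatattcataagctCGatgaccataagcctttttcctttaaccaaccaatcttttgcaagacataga
The Esrra stretch had 68.6% G or C and 22 CG in 245 bases, and the Ppara stretch 75.8% and 7 CG in 62 bases. The upstream Pparg stretch had 87.7% and 9 CG in 57 bases, and the downstream one 40.8% and 2 CG in 250 bases. Another Pparg stretch, from 115362099 to 115362291 on chromosome 6 (193 bases, 66.8% G or C, 10 CG), lies between them and is not shown. Gene-level counts do not separate transcripts from these Pparg starts.

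Promoter windows were found for 30 of the 33 receptors, 49 windows in all; Thra, Hnf4g and Nr3c1 had none. Their median was 61.2% G or C and 11 CG, beside 52.4% and 6 CG over 32841 windows of all genes. The 6-base element AGGTCA that many receptors read, its direct repeats with 1 base between (DR1) or 4 bases between (DR4), and its extended form TCAAGGTCA were searched on both strands. DR1, DR4 and the extended form were in 0 of the 49 windows, and they were in 0.0335%, 0.0152% and 0.387% of all windows. AGGTCA alone, which those longer motifs contain, was in 8 windows, 16.3%, beside 14.0% of all windows. Those windows belong to Nr5a2, Nr6a1, Pparg, Rarg, Rxra, Rxrg and Thrb. The Pparg stretches described above hold 0 AGGTCA, so the match of Pparg includes window bases that were cut away. A match of letters is a description of the sequence and not a binding site.

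Pparg, the receptor that drives fat storage in adipocytes and is known to rise in fatty mouse liver, was highest in HFD without passing the test. It lies on chromosome 6, from 115360951 to 115490399 on the plus strand of mm10. Its level was 11.9, 4.32, 3.88 and 5.80 CPM in the HFD+MEC1 libraries, 15.1, 14.05, 16.98 and 10.7 CPM in the HFD libraries and 9.42, 8.50, 7.54 and 4.18 CPM in the ND libraries. HFD lay above ND without overlap, and HFD+MEC1 replicate 1 alone among its group reached into the HFD range. The log2 fold change was 0.94 ± 0.35 in HFD against ND (edgeR adjusted p = 0.144), -1.13 ± 0.35 in HFD+MEC1 against HFD (adjusted p = 0.177) and -0.19 ± 0.35 in HFD+MEC1 against ND (adjusted p = 0.827). Without HFD+MEC1 replicate 1, the difference between HFD+MEC1 and HFD was -1.60 (edgeR adjusted p = 0.00807), where 3.2% of all genes passed, and that between HFD and ND was 0.94 (adjusted p = 0.0202). DESeq2 on all libraries gave adjusted p = 0.0163 for HFD+MEC1 against HFD and 0.0282 for HFD against ND. In RPKM Pparg was at rank 21 in HFD+MEC1 with 2.28 ± 1.46, rank 15 in HFD with 4.96 ± 1.12 and rank 19 in ND with 2.40 ± 0.704.

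Ppard, a fatty acid receptor present in most tissues, averaged 24.8 ± 3.65 CPM in HFD+MEC1, 24.9 ± 4.25 in HFD and 30.7 ± 2.66 in ND. Its log2 fold change was -0.31 ± 0.13 in HFD+MEC1 against ND (edgeR adjusted p = 0.185) and -0.30 ± 0.13 in HFD against ND (adjusted p = 0.182). The 3 PPAR genes thus had log2 fold changes of 0.70, 0.94 and -0.30 for Ppara, Pparg and Ppard in HFD against ND, of which that of Ppara passed.

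Nr1h3 and Nr1h2 encode the oxysterol receptors LXR alpha and LXR beta, which are known to induce cholesterol export and fat synthesis genes. Nr1h3 was at 87.1, 85.0, 104.2 and 99.8 CPM in the HFD+MEC1 libraries, 97.5, 87.0, 96.5 and 94.4 CPM in the HFD libraries and 79.5, 85.4, 84.3 and 78.4 CPM in the ND libraries. HFD lay just above ND without overlap, a difference of 0.20 ± 0.08 (edgeR adjusted p = 0.182), and HFD+MEC1 differed from HFD by 0.00 ± 0.08 (adjusted p = 0.994). Nr1h3 passed in HFD against ND with library totals (0.32, edgeR adjusted p = 0.0394). Nr1h2 was at 27.6, 25.7, 34.7 and 28.5 CPM in HFD+MEC1, 21.7, 23.1, 31.1 and 26.0 CPM in HFD and 22.6, 20.5, 27.0 and 20.3 CPM in ND. All 3 groups overlapped, and the log2 fold change of Nr1h2 in HFD+MEC1 against ND was 0.37 ± 0.13 (adjusted p = 0.12). With the replicate block Nr1h2 passed there (0.37, edgeR adjusted p = 0.0274). Nr1h5, a rodent relative of the bile acid receptor, was rare, at 1.78 ± 0.772, 1.22 ± 0.434 and 1.58 ± 0.550 CPM in HFD+MEC1, HFD and ND.

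Rxra differed most between HFD+MEC1 and the other groups among the 3 retinoid X receptor genes. It is on chromosome 2, from 27676440 to 27762957 in mm10. Its level was 343.2, 392.0, 441.4 and 461.7 CPM in the HFD+MEC1 libraries, 338.4, 299.5, 336.3 and 341.4 CPM in the HFD libraries and 320.3, 293.4, 351.5 and 300.2 CPM in the ND libraries. Every HFD+MEC1 library was above every HFD library, narrowly for HFD+MEC1 replicate 1, and HFD and ND overlapped. The log2 fold change was 0.32 ± 0.11 in HFD+MEC1 against HFD (edgeR adjusted p = 0.188), 0.37 ± 0.11 in HFD+MEC1 against ND (adjusted p = 0.0577) and 0.06 ± 0.11 in HFD against ND (adjusted p = 0.818). Without HFD+MEC1 replicate 1 the first of these passed at 0.39 (adjusted p = 0.0476) and the second at 0.45 (adjusted p = 0.0209). The second also passed without ND replicate 3, with DESeq2, with library totals and in the 3 fits to RPKM. Rxrb and Rxrg lay between -0.26 and 0.18 in the 3 comparisons, and neither passed.

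Hnf4a was highest in HFD+MEC1 without passing. Its level was 546.1, 537.7, 685.9 and 747.9 CPM in the HFD+MEC1 libraries, 464.7, 511.7, 518.3 and 537.5 CPM in the HFD libraries and 482.2, 494.8, 600.3 and 556.5 CPM in the ND libraries. The lowest HFD+MEC1 library lay just above the highest HFD library, and ND overlapped both groups. Hnf4a had a log2 fold change of 0.31 ± 0.12 in HFD+MEC1 against HFD (edgeR adjusted p = 0.254), 0.24 ± 0.12 in HFD+MEC1 against ND (adjusted p = 0.311) and -0.07 ± 0.12 in HFD against ND (adjusted p = 0.8). Hnf4g, its rarer relative, had 0 to 6 counts in HFD+MEC1, 4 to 14 in HFD and 4 to 12 in ND. Nr5a2, the LRH-1 gene of bile acid synthesis, lay between -0.13 and 0.10 in all comparisons. Of 8 hepatocyte genes known to depend on HNF4A, 0 passed with edgeR in any comparison; 2, 1 and 2 had an unadjusted p under 0.05 in HFD+MEC1 against HFD, HFD+MEC1 against ND and HFD against ND. DESeq2 called 1 of them, in HFD against ND, and limma-voom 0.

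Nr1i2 and Nr1i3 encode PXR and CAR, which sense drugs and bile acids and induce the enzymes that clear them. Nr1i2 was at 47.3, 41.2, 58.3 and 54.0 CPM in HFD+MEC1, 42.3, 51.5, 50.3 and 43.6 CPM in HFD and 42.7, 41.4, 47.9 and 46.9 CPM in ND. Its groups overlapped throughout, with log2 fold changes of 0.10, 0.17 and 0.07 for HFD+MEC1 against HFD, HFD+MEC1 against ND and HFD against ND (SE 0.11 each, edgeR adjusted p = 0.721, 0.432 and 0.768). Nr1i3 was at 68.0, 34.8, 39.1 and 48.4 CPM in HFD+MEC1, 56.7, 57.5, 64.3 and 41.4 CPM in HFD and 44.8, 48.3, 47.8 and 37.0 CPM in ND. HFD+MEC1 held both the highest and the lowest library of all 12, with replicate 1 the highest. Its log2 fold changes were -0.21, 0.10 and 0.31 (SE 0.19, adjusted p = 0.668, 0.843 and 0.406), and 74.8% of its exonic bases overlap Tomm40l on the opposite strand, and the use of strand in counting is not given, so its values are uncertain.

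**Figure D3:**
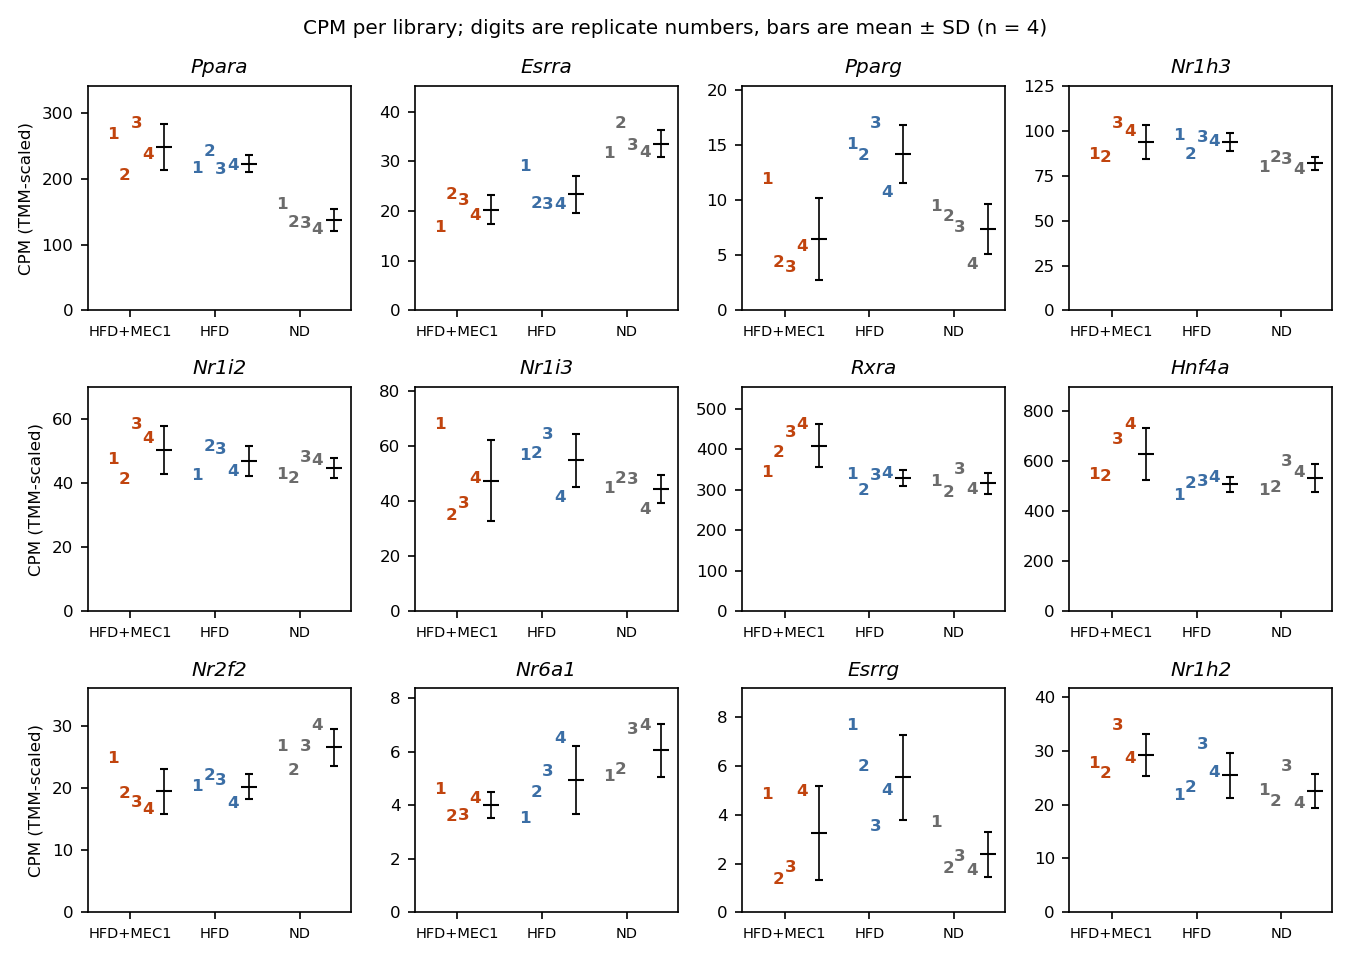
CPM of 12 receptors in each library, with HFD+MEC1, HFD and ND from left to right, digits giving the replicate number and bars the mean with its SD (n = 4); each panel starts at 0. Ppara in ND (123 to 161 CPM) and Esrra in ND (31.7 to 37.6 CPM) stand apart from the other groups, and HFD+MEC1 replicate 1 stands high for Pparg and Nr1i3.

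Nr2f2, the COUP-TFII gene, was lower on the high-fat diet without passing the test. Its level was 24.8, 19.2, 17.7 and 16.6 CPM in the HFD+MEC1 libraries, 20.3, 22.1, 21.3 and 17.5 CPM in the HFD libraries and 26.8, 22.8, 26.8 and 30.2 CPM in the ND libraries. All HFD libraries lay under all ND libraries, and HFD+MEC1 replicate 1 reached into the ND range. Nr2f2 had a log2 fold change of -0.39 ± 0.13 in HFD against ND (edgeR adjusted p = 0.0746) and -0.45 ± 0.13 in HFD+MEC1 against ND (adjusted p = 0.0541). It passed in HFD against ND with HFD and ND fitted alone (adjusted p = 0.0355), without HFD+MEC1 replicate 1 (0.0340) and without ND replicate 2 (0.0496), and in HFD+MEC1 against ND with DESeq2 (0.0262) and without the same libraries (0.0111 and 0.0464). COUP-TFII is known from endothelium, stroma and bile duct lineages more than from hepatocytes, so the markers of those cells are given beside it. Summed over 5 cholangiocyte markers the level was 36.9 to 89.9 CPM in HFD+MEC1, 39.6 to 59.3 CPM in HFD and 60.6 to 90.3 CPM in ND, and Epcam was the 1 of 5 that fell, in HFD+MEC1 against ND. Summed over 7 sinusoidal endothelial markers it was 276.7 to 325.8, 243.7 to 301.8 and 179.3 to 272.1 CPM, with Clec4g the 1 of 7 that rose, in HFD+MEC1 against ND. Summed over 7 stellate cell markers it was 227.5 to 387.5, 166.1 to 371.7 and 251.1 to 402.2 CPM, with 0 of 7 called by edgeR (1 by DESeq2, in HFD against ND); the part of these cells in the Nr2f2 values was not tested.

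Nr6a1, the germ cell nuclear factor gene, a repressor best known from embryos and the germ line, was at 4.58, 3.60, 3.62 and 4.27 CPM in HFD+MEC1, 3.51, 4.49, 5.27 and 6.51 CPM in HFD and 5.08, 5.35, 6.84 and 6.99 CPM in ND. HFD+MEC1 lay under ND without overlap, and HFD overlapped both. Nr6a1 had a log2 fold change of -0.59 ± 0.19 in HFD+MEC1 against ND (edgeR adjusted p = 0.0925, DESeq2 adjusted p = 0.0421). Esrrg, a relative of Esrra known to be induced by fasting and glucagon in mouse liver, was at 4.85, 1.36, 1.85 and 4.95 CPM in HFD+MEC1, 7.67, 5.98, 3.53 and 5.01 CPM in HFD and 3.70, 1.79, 2.27 and 1.74 CPM in ND. HFD libraries lay above ND save for HFD replicate 3, which was under ND replicate 1. Esrrg had a log2 fold change of 1.22 ± 0.41 in HFD against ND (adjusted p = 0.105), opposite in sign to that of Esrra, and -0.77 ± 0.41 in HFD+MEC1 against HFD (adjusted p = 0.406). Esrrg passed in HFD against ND with DESeq2 (adjusted p = 0.0196), when ND and HFD were fitted alone (0.0177) and with the replicate block (0.0402).

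Among the 7 tested receptors for hormones and vitamins, 0 passed in any comparison with edgeR, DESeq2 or limma-voom on all libraries, and 1 had an unadjusted p under 0.05 in each comparison. Nr3c1 passed in HFD+MEC1 against ND without ND replicate 3 (-0.32, edgeR adjusted p = 0.0295). Nr3c1, the glucocorticoid receptor gene, spanned 74.9 to 75.7 CPM in HFD+MEC1, 78.7 to 89.8 CPM in HFD and 66.6 to 99.4 CPM in ND; HFD+MEC1 lay under HFD without overlap (log2 fold change -0.15 ± 0.10, edgeR adjusted p = 0.538). Rara, a retinoic acid receptor gene, spanned 12.9 to 17.2 CPM in HFD+MEC1, 10.6 to 12.6 CPM in HFD and 10.3 to 14.6 CPM in ND, with 0.35 ± 0.12 in HFD+MEC1 against HFD (adjusted p = 0.207). Thra, a thyroid hormone receptor gene, spanned 12.4 to 16.6 CPM in HFD+MEC1, 12.7 to 15.5 CPM in HFD and 15.95 to 16.6 CPM in ND, so that HFD lay under ND without overlap (-0.20 ± 0.11, adjusted p = 0.308); its end overlaps Nr1d1 on the opposite strand over 5.7% of its exonic bases. Thrb, the form that predominates in hepatocytes, averaged 33.6 ± 5.12 CPM in HFD+MEC1, 38.6 ± 5.23 in HFD and 37.7 ± 3.05 in ND. Rarg stood at -0.34 ± 0.15 in HFD+MEC1 against ND and -0.35 ± 0.15 in HFD against ND (adjusted p = 0.225 and 0.194). The oestrogen receptor gene Esr1 and the mineralocorticoid receptor gene Nr3c2 lay between -0.29 and -0.04 in all 3 comparisons.

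The remaining receptors are orphans of the clock, the immediate early response and repression. Rora, a receptor that acts on clock genes, lay between -0.11 and -0.02 in the 3 comparisons. Nr4a1 and Nr4a2, genes that many cells switch on within minutes of a stimulus, were rare, with 30 to 85 and 0 to 52 counts per library. Nr4a2 had the largest positive log2 fold change of the receptors against ND, 1.82 ± 0.74 in HFD+MEC1 and 1.80 ± 0.73 in HFD, and passed in neither (edgeR adjusted p = 0.182 and 0.168). Its libraries held 52, 10, 11 and 20 counts in HFD+MEC1, 14, 26, 28 and 26 counts in HFD and 0, 14, 4 and 7 counts in ND. Nr2c1 and Nr2c2, the testicular orphan receptors, lay between -0.19 and 0.17, with 31.2% of the exonic bases of Nr2c2 overlapping genes on the other strand, and Nr2f6 lay between -0.06 and 0.12. Nr2f1 was rare, at 0.616 ± 0.498, 0.570 ± 0.171 and 0.600 ± 0.145 CPM in HFD+MEC1, HFD and ND.

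Groups that did not overlap were found for 6 of 32 receptors in HFD against ND, or 18.8%, where 14.3% of all tested genes did not overlap. They were Ppara, Pparg and Nr1h3, higher (7.46% of all genes), and Thra, Esrra and Nr2f2, lower (6.81%). Between HFD+MEC1 and HFD they were 4, or 12.5% beside 7.11%: Rxra, Rara and Hnf4a higher (3.13% of all genes) and Nr3c1 lower (3.98%). For HFD+MEC1 against ND they were 3, or 9.38% beside 11%: Ppara higher (5.13%), Esrra and Nr6a1 lower (5.84%). HFD+MEC1 replicate 1 was the library of its group nearest to HFD for Pparg and Rxra, and without it 2 receptors passed between HFD+MEC1 and HFD, Pparg lower and Rxra higher.

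The genes that these receptors act with and on were taken as 15 lists of coregulators, targets, other receptors, early and clock genes, 174 genes of which 162 were tested; several genes are known targets of more than 1 receptor. In HFD against ND, 30 rose and 9 fell, 24.1% of those tested. Against ND, 18 rose in HFD+MEC1 and 16 fell, 21.0%, and in HFD+MEC1 against HFD 0 passed with edgeR, where 52 had an unadjusted p under 0.05. The corresponding shares of all genes at the adjusted threshold are the 6.3%, 4.54% and 0.0282% given above. At an unadjusted p under 0.05 the shares of all genes are 20.7%, 19.1% and 14.8% in the same order, here and for each list below. The lists were chosen with earlier results of these data known, so these shares, and those of each list below, are not an independent test. DESeq2 called 3 higher and 14 lower in HFD+MEC1 against HFD, beside 2.86% of all genes, and limma-voom 1 higher, beside 2 of 14172 genes. Without HFD+MEC1 replicate 1 edgeR called 2 higher and 14 lower there, beside 3.2% of all genes. Without HFD replicate 4 it called 1 higher and 2 lower, beside 72 of 14367 genes. The count in HFD against ND was 24 without HFD replicate 3, 25 without ND replicate 1 and 23 without ND replicate 4.

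Targets of PPARA rose with Ppara itself: 14 of 22 in HFD against ND (median log2 fold change 0.90) and 12 of 22 in HFD+MEC1 against ND (median 0.54), with 0 lower in either, while in HFD+MEC1 against HFD 0 of 22 passed with edgeR, DESeq2 or limma-voom (median -0.14, 5 at an unadjusted p under 0.05; 1 fell without HFD+MEC1 replicate 1). Over all genes the medians were -0.00, 0.00 and 0.01. Cpt1a, which admits fatty acids to mitochondria, averaged 430.2 ± 52.5 CPM in HFD+MEC1, 363 ± 27.3 in HFD and 186 ± 19.1 in ND, with log2 fold changes of 1.21 ± 0.11 and 0.97 ± 0.11 for the high-fat groups against ND (edgeR adjusted p = 3.32e-05 and 0.000185). Hadhb, of the beta-oxidation complex, averaged 86.1 ± 9.32 CPM in HFD+MEC1, 91.3 ± 9.78 in HFD and 54.6 ± 3.90 in ND (adjusted p = 0.00134 and 0.000507 against ND). The count in HFD against ND was 9 without HFD replicate 3 and 9 without ND replicate 4, and that in HFD+MEC1 against ND was 8 without ND replicate 4.

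Targets of PPARG were higher in HFD than in ND for 7 of 9 tested (median log2 fold change 2.57). Between HFD+MEC1 and HFD 0 of 9 passed with edgeR or limma-voom (median -1.52, 6 at an unadjusted p under 0.05), and DESeq2 called 2 lower, Cd36 and Fabp4. Against ND 0 of 9 passed in HFD+MEC1 with edgeR or limma-voom (median 0.91, 5 at an unadjusted p under 0.05), and DESeq2 called Mogat1 higher and Lpl lower. Fabp4, a fatty acid binding protein gene, rose by 1.00 ± 0.14 in HFD against ND (edgeR adjusted p = 0.000729), and Mogat1, of triglyceride synthesis, by 3.95 ± 0.62 (adjusted p = 0.00344). Without HFD+MEC1 replicate 1, the library in which Pparg was also highest of its group, 4 of the 9 passed as lower in HFD+MEC1 against HFD: Cd36, Cidea, Cidec and Fabp4. Macrophages also express Cd36 and Fabp4; 9 macrophage markers summed to 333.7 to 447.9 CPM in HFD+MEC1, 285.5 to 438.4 in HFD and 225.9 to 340.6 in ND, with Gpnmb the 1 of 9 that rose in HFD against ND, and their part in these values was not tested. The 7 called in HFD against ND were 3 higher and 1 lower without HFD replicate 3, 3 without ND replicate 2, 3 or 4, and 4 with limma-voom, without HFD replicate 2 or without ND replicate 1.

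Of 19 PXR and CAR targets, 0 passed in HFD+MEC1 against HFD with edgeR or limma-voom (median log2 fold change -0.70, 9 at an unadjusted p under 0.05), while DESeq2 called 5 lower and edgeR without HFD+MEC1 replicate 1 called 3 lower. Against ND, 5 fell in HFD+MEC1 (median -0.84), and 4 fell and 1 rose in HFD (median -0.35). The 5 became 8 lower without HFD+MEC1 replicate 1, and 8 lower and 1 higher with DESeq2. Ces2a, a carboxylesterase gene, averaged 103 ± 27.7 CPM in HFD+MEC1, 90.3 ± 16.4 in HFD and 377 ± 18.5 in ND, while Nr1i2 and Nr1i3 themselves did not pass. Of 6 retinoic acid receptor targets, 2 fell in HFD+MEC1 against ND and 1 in HFD against ND. Cyp26a1 among them, the retinoic acid oxidase gene, averaged 1.90 ± 1.91 CPM in HFD+MEC1, 1.96 ± 0.747 in HFD and 65.2 ± 42.4 in ND (edgeR adjusted p = 0.00605 and 0.00496 against ND). Of 11 LXR targets, 3 fell in HFD+MEC1 against ND, among them Srebf1 (-1.44 ± 0.19, adjusted p = 0.00128), and 1 rose and 2 fell in HFD against ND. Of 6 thyroid hormone receptor targets, 2 rose and 1 fell in HFD+MEC1 against ND and 3 rose in HFD against ND; Dio1, which activates thyroid hormone, rose in both (0.62 ± 0.13 and 0.71 ± 0.13). Of 14 glucocorticoid receptor targets, 2 rose in HFD+MEC1 against ND, Zbtb16 and Cdkn1a, and 1 in HFD against ND, Cdkn1a.

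Of 8 genes of mitochondrial metabolism known as targets of the oestrogen-related receptors, 0 passed in HFD+MEC1 against ND with edgeR (median log2 fold change -0.11, 3 at an unadjusted p under 0.05, 1 called by DESeq2 and 0 by limma-voom) and 1 in HFD against ND (median 0.02), where Acadm, also a PPARA target, rose by 0.87 ± 0.16 (edgeR adjusted p = 0.00597). Among 9 tested receptors outside the 33, Nr0b2, the gene of the corepressor-like receptor SHP, averaged 38.7 ± 6.89 CPM in HFD+MEC1, 25.9 ± 6.31 in HFD and 12.01 ± 4.27 in ND. It rose in HFD+MEC1 by 1.69 ± 0.25 (adjusted p = 0.00366) and in HFD by 1.11 ± 0.25 (adjusted p = 0.0213) against ND. The HFD and ND libraries of Nr0b2 overlapped. Its call in HFD against ND was lost without HFD replicate 2 or 3 and without ND replicate 1, 2 or 4 (edgeR adjusted p = 0.0520 to 0.0694). Rarb fell in HFD+MEC1 against ND to 2.24 ± 0.614 CPM, against 5.63 ± 1.31 in ND (adjusted p = 0.00329), with 38.4% of its exonic bases overlapped on the opposite strand.

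Of 13 coactivators, 0 passed in any comparison with edgeR, DESeq2 or limma-voom, with median log2 fold changes of 0.08, -0.03 and -0.13 for HFD+MEC1 against HFD, HFD+MEC1 against ND and HFD against ND, and 1, 0 and 5 at an unadjusted p under 0.05. Of 9 corepressors, Nrip1 fell in HFD+MEC1 against ND (-0.42 ± 0.11, edgeR adjusted p = 0.0406). Of 9 tested bile acid genes, Abcb4, which exports phospholipid into bile, averaged 302 ± 46.6 CPM in HFD+MEC1, 348 ± 46.3 in HFD and 168 ± 16.4 in ND and rose in both high-fat groups, as did Nr0b2, while Cyp7b1 fell in HFD against ND. Of 16 clock genes 3 fell in HFD+MEC1 against ND with edgeR, Per3, Tef and Bhlhe40. That count was 4 with DESeq2, 1 with limma-voom and 0 to 5 with a library left out, and 5 had an unadjusted p under 0.05. In HFD against ND 0 passed with edgeR or limma-voom and 0 to 2 with a library left out (5 at an unadjusted p under 0.05, 1 called by DESeq2). Of 10 immediate early genes, Egr1 rose in HFD against ND (2.53 ± 0.63, adjusted p = 0.0448), a call lost in 12 of the 22 alternative settings.

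**Figure D4:**
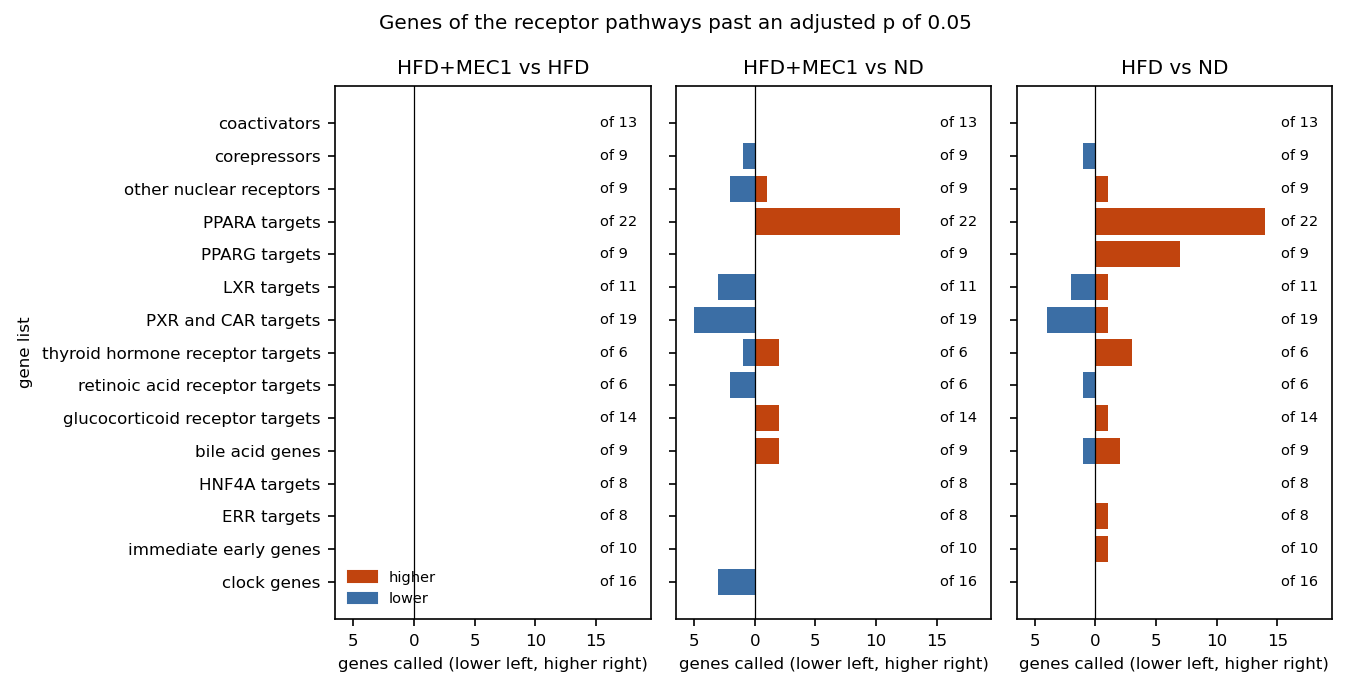
Number of genes past an adjusted p of 0.05 in each of 15 lists of receptor partners and targets, higher to the right and lower to the left of 0, with the number tested at the right edge, in HFD+MEC1 against HFD (left), HFD+MEC1 against ND (middle) and HFD against ND (right). PPARA targets have the longest bars, 12 and 14 of 22, PPARG targets have a bar of 7 of 9 in HFD against ND, and there is no bar in HFD+MEC1 against HFD.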

How the data were processed

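RNA from 12 mouse liver samples in 3 groups of 4 was sequenced on Illumina machines from 1 ug of total RNA taken with Trizol, per the labels' protocols. The authors deposited gene counts, which are whole numbers that were not normalized, and RPKM values. STAR 2.7.10a and build mm10 are named per the submitters' processing notes; the counter, its annotation and its use of strand are not given in the sources used here. The 12 further RPKM columns that match no sample were not used, and 244 to 296 genes per library had an RPKM above 0 with a count of 0. Libraries held 39916405 to 51340317 counts, and 70.1% to 74.7% of the gene counts from 1 to 20 were even.

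Genes were kept with filterByExpr (14172 of 24787, with 99.98% of counts) and scaled by TMM. A quasi-likelihood model in edgeR 4.0.16 (limma 3.58.1, R 4.3.3) was fitted to all 3 groups, with p-values adjusted by Benjamini-Hochberg over all tested genes and a threshold of 0.05; fold changes are the group named first over the other. The biological coefficient of variation was 0.200. CPM is the count scaled to the library's size after TMM. The SE is the log2 fold change divided by the root of F. Tests were two-sided. The procedure was tested on simulated data. The alternatives were DESeq2 1.42.0, limma-voom, other scalings and filters, limma on log2(RPKM + 0.1) or log2(RPKM + 1), a replicate block, and each library left out.

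The members and lists were chosen with earlier results of these data known. Given per library were the members past the threshold, 7 set irrespective of their p (Ppara, Pparg, Nr1h3, Nr1i2, Nr1i3, Rxra and Hnf4a) and those with the next smallest p, up to 12. From each partner list up to 2 called genes with the smallest p in a comparison were taken; the other names were chosen after their values were seen. Replicate numbers did not pair samples, with correlations of -0.0942 to 0.133. Some genes of the partner lists are counted but not reported by name here.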

Additional observations from a re-analysis of the deposited data

Results flagged for a closer look

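Within each group of 4 libraries, the highest or lowest value of a receptor was flagged where its gap to the nearest other library was a larger share of the group's whole range in CPM than Dixon's 95% critical value. Of 96 groups examined, 8 were flagged; chance flags about 1 in 20 groups. Esrra in HFD replicate 1 was at 29.0 CPM, and the other HFD libraries were at 21.4 to 21.6 CPM. Rxra in HFD replicate 2 was at 299 CPM, and the other HFD libraries were at 336 to 341 CPM. Rara was low in the same library, at 10.6 CPM beside 12.3 to 12.6 CPM in the rest of HFD. Nr4a2 in HFD replicate 1 was at 0.321 CPM, beside 0.555 to 0.574 CPM. Nr2c1 in HFD replicate 4 was at 16.9 CPM, beside 12.3 to 13.01 CPM. Nr2f1 in HFD+MEC1 replicate 3 was at 1.36 CPM, beside 0.314 to 0.424 CPM in the rest of HFD+MEC1. In ND, Nr1h5 was at 0.754 CPM in replicate 2, beside 1.82 to 1.89 CPM, and Rxrg at 4.16 CPM in replicate 3, beside 4.70 to 4.78 CPM.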

How the results depend on the processing

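Each result was recomputed under 22 alternatives, 12 of which leave out 1 library. Ppara passed under all of them in HFD+MEC1 against ND (log2 fold change 0.78 to 0.94, highest adjusted p = 0.00459) and in HFD against ND (0.65 to 0.82, highest adjusted p = 0.0113), as did Esrra in HFD+MEC1 against ND (-0.80 to -0.59, highest adjusted p = 0.0147). The number of receptors called in HFD against ND was 2, and became 4 with DESeq2, 5 with only the 2 groups fitted, 1 in unfiltered RPKM and 1 to 4 with a library left out. In HFD+MEC1 against HFD it was 0, and became 1 with DESeq2 and 0 to 2 with a library left out; in HFD+MEC1 against ND it was 2, and became 5 with DESeq2 and 2 to 4 with a library left out. Calls over all genes moved as well. In HFD against ND they were 893, and became 1391 with DESeq2 and 1159 with only the 2 groups fitted. In unfiltered RPKM they were 729 of 18612 genes. With a library left out they were 423 to 1109 in HFD against ND. They were 0 to 460 in HFD+MEC1 against HFD and 334 to 678 in HFD+MEC1 against ND, again with a library left out. Among the receptors and the called partner genes of smallest p in each list, no direction of a called value reversed. Directions of the other genes were not compared. Of the partner genes, 39 passed in HFD against ND (23 to 44 with a library left out). In HFD+MEC1 against HFD 0 passed, and 1 with no filter, 17 with DESeq2, 1 with limma-voom, 1 with the replicate block, 1 on log2(RPKM + 1) and 0 to 16 with a library left out. In HFD+MEC1 against ND 34 passed, 55 with DESeq2 and 23 to 36 with a library left out. With the replicate block, 3, 0 and 3 receptors passed in HFD against ND, HFD+MEC1 against HFD and HFD+MEC1 against ND; the numbers did not pair the samples, and not every library correlated best with its own number. Library totals in place of TMM moved the median log2 fold change of all genes by 0.12 in HFD against ND, where the share of called genes that were higher was 79.5% with totals, 73.5% in RPKM and 53.2% with TMM; in HFD+MEC1 against ND it was 66.8%, 64.5% and 47.2%. The cause of these changes was not tested. Depth limits Vdr, Hnf4g, Nr4a1, Nr4a2 and Nr2f1, whose counts were low.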
